A study of Mus musculus with 23 samples.

Results

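The 7 cyclin-dependent kinase inhibitor genes Cdkn1a, Cdkn1b, Cdkn1c, Cdkn2a, Cdkn2b, Cdkn2c and Cdkn2d were followed through mouse embryonic stem (ES) cells with and without Argonaute proteins. They were taken by symbol from the exon and intron tables of 3 series, where all 7 were found among 18412 genes. Polyadenylated RNA was sequenced from cells grown on gelatin in medium with serum and leukemia inhibitory factor, and the labels call the libraries strand-specific. There were 23 libraries in 11 groups. The first series compared genotypes: the AB2.2 wild-type line (n = 2), the Blm-/-;Ago1,3,4-/- line B9 (n = 2), the line E7, which is Blm-/-;Ago1,2,3,4-/- with CreERT2 and the transgene hAgo2fl (n = 3), and the clones C62 and C86, Blm-/-;Ago1,2,3,4-/- with CreERT2 (n = 2). The time course and the rescue used cells with the same deletions, CreERT2 and TT-FHAgo2, clonal lines whose Ago2 depends on doxycycline and, per the labels, reaches the wild-type level at 2.5 µg/mL. They were propagated in 0.1 µg/mL. In the time course these cells had 48 h at 2.5 µg/mL doxycycline and were taken 0, 24, 48 or 96 h after its removal (2 libraries a time). In the rescue they had 96 h without doxycycline and were taken then, or after a further 48 h at 0.1 or 2.5 µg/mL (n = 2 each). All groups but wild type lack Blm as well, so loss of Blm and loss of Argonautes cannot be told apart in comparisons with wild type. CreERT2 is given for E7 and the clones and not for B9 or wild type. Its part cannot be told apart when E7 or the clones are compared with either. The dosed groups of the rescue were also 48 h longer in culture than their control, and the later times of the time course were longer in culture than 0 h. E7 and B9 are single lines, the 2 clone libraries come from 2 clones, and the time course and rescue come from TT-FHAgo2 cells alone. Nothing in the labels says that replicates were separate cultures, so p-values measure the spread between libraries, which may be technical.

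Cyclin-dependent kinases drive the cell cycle when bound to cyclins, and 2 families of small proteins hold them back. The Cip/Kip family (Cdkn1a or p21, Cdkn1b or p27, Cdkn1c or p57) binds complexes of cyclins with kinases, and the INK4 family (Cdkn2a or p16, Cdkn2b or p15, Cdkn2c or p18, Cdkn2d or p19) binds the kinases Cdk4 and Cdk6 and keeps D-type cyclins off them. ES cells have a short G1 phase and little inhibitor activity. Their miR-290 family microRNAs, which act through Argonaute proteins, are known to target Cdkn1a, and Cdkn1b is a known target of miR-221 and miR-222.

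Mature microRNAs were not measured here. Their sequences and the matches to them in the inhibitor transcripts are shown because Argonaute is what binds them. Sequences are from RefSeq on GRCm38.p6, 5′ to 3′, with the seed (bases 2 to 8) in capitals. The miR-290 members below share 1 seed, and that of miR-17 and miR-20a is the same run shifted by 1 base.
miR-291a-3p (chr7:3218968-3218989, + strand): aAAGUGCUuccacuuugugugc
miR-294-3p (chr7:3220691-3220712, + strand): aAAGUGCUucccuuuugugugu
miR-295-3p (chr7:3220815-3220837, + strand): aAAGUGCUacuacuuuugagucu
miR-17-5p (chr14:115043684-115043706, + strand): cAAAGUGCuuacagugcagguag
miR-20a-5p (chr14:115044183-115044205, + strand): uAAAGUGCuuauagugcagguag
miR-221-3p (chrX:19146307-19146329, - strand): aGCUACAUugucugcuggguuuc
miR-222-3p (chrX:19146901-19146923, - strand): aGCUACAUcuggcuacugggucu

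The 3′ UTRs of the 7 genes were searched, on the transcript's own strand, for the 7 bases that pair with each seed. For each gene the GENCODE M21 transcript was used whose exons sum nearest to the authors' exon length. Cdkn1a was the 1 member of 7 with a match to the miR-290 seed (AGCACTT), with 2 in its 1334 bases. The first overlaps its 1 match to the seed of miR-17 and miR-20a (GCACTTT). Cdkn1b had 1 match to the seed of miR-221 and miR-222 (ATGTAGC) in 1280 bases, and Cdkn1c had 1 in 685. Cdkn1c also had 1 match to the seed of miR-92a and miR-25 (GTGCAAT). No member had the let-7 match (CTACCTC). Windows of 30 bases around the matches follow, with the 7 bases in capitals.
Cdkn1a, bases 435 to 441 of the UTR (chr17:29099828-29099834, + strand): atcctcagacctgaatAGCACTTtggaaaa
Cdkn1a, bases 1107 to 1113 (chr17:29100500-29100506, + strand): ataccgtgggtgtcaaAGCACTTagtgggt
Cdkn1b, bases 198 to 204 (chr6:134924431-134924437, + strand): cctctaaaagcattggATGTAGCattgcgc
Cdkn1c, bases 95 to 101 (chr7:143458926-143458932, - strand): ctgggacctttcgttcATGTAGCaggaacc
Of 17806 3′ UTRs searched alike, 13.5% held AGCACTT, 11.2% GCACTTT, 8.45% ATGTAGC, 6.1% GTGCAAT and 8.33% CTACCTC. Among UTRs of 0.8 to 1.25 times the length of that of Cdkn1a, 14.8% held AGCACTT. For the lengths of Cdkn1b and Cdkn1c, 7.94% and 4.91% held ATGTAGC. A match describes letters only, and a member without one may still be bound elsewhere.

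Exon reads per library, in M reads, ranged from 13.5 to 53.7 (genetic series), 32.9 to 62.4 (time course) and 24.7 to 53.8 (rescue). Libraries of a group differed by a median of 0.31 to 0.57 on the log2 scale among genotypes, against 0.07 to 0.10 for the time course and 0.08 to 0.11 for the rescue, so changes among genotypes are far less precise. All 6 ES cell markers (Pou5f1, Nanog, Sox2, Esrrb, Zfp42, Tdgf1) were abundant in every group, the lowest being Nanog in wild type at a mean of 14860 normalised reads. Markers of feeder fibroblasts summed to 467 in wild type and 96.4 to 252 in the mutant lines, and to 100 to 473 in the other series. Primitive endoderm markers had sums of 625 (wild type), 572 (B9), 151 (E7) and 296 (clones). The 3 neuroectoderm markers Sox1, Pax6 and Nes summed to 2358 in wild type and 717 to 1764 in the mutant lines. The part of such cells in the results was not tested, and in bulk RNA fewer cells of a type and less RNA per cell cannot be told apart.

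Values below are normalised reads per library, in the authors' scaling. The deposited tables give group means, from which the whole reads of each library were worked out. Libraries are numbered from the deepest in each group, and a number does not name a sample, clone or pair. Log2 changes carry their standard error (SE) and the Benjamini-Hochberg adjusted p of limma over all genes tested in that comparison, and a gene was called at an adjusted p below 0.05. All 7 members passed the minimum of 10 mean normalised reads in each exon table. Per kilobase of exon, Cdkn1a, Cdkn1b, Cdkn2a and Cdkn2d were the more abundant inhibitors at 0 h of the time course, with 910, 1440, 840 and 557 reads per kb. Cdkn1c (139), Cdkn2b (126) and Cdkn2c (36.1) were lower on the same scale. At 96 h Cdkn1a led with 4870 reads per kb, ahead of Cdkn1b (1806), Cdkn2a (969), Cdkn2d (704), Cdkn2b (288), Cdkn1c (86.4) and Cdkn2c (56.6). In wild type, which was scaled apart, Cdkn1c led with 1013 reads per kb and Cdkn2c was last with 11.4.

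Within 24 h of the removal of doxycycline 4 of the 7 inhibitors rose (Cdkn1a, Cdkn1b, Cdkn1c, Cdkn2b), where 50.7% of all genes tested were called. From 24 to 48 h Cdkn1a and Cdkn2a rose further (background 39.0%). From 48 to 96 h Cdkn1a, Cdkn2b and Cdkn2d rose while Cdkn1b and Cdkn1c fell (36.4%). Over the whole 96 h 5 rose and Cdkn1c fell, 6 of 7 against a background of 65.0%, with a median log2 change of 0.34 over the members and -0.01 over all genes. When doxycycline came back at 0.1 µg/mL, 3 fell (Cdkn1a, Cdkn1b, Cdkn2a) and Cdkn1c rose (44.1% of all genes called). At 2.5 µg/mL Cdkn1a, Cdkn1b and Cdkn2b fell and Cdkn1c rose (63.8%). Between the doses, Cdkn1a and Cdkn2b were lower at 2.5 µg/mL (41.0%). With 7 members and such a large share of all genes called, nothing is read from these counts.

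**Figure D1:**
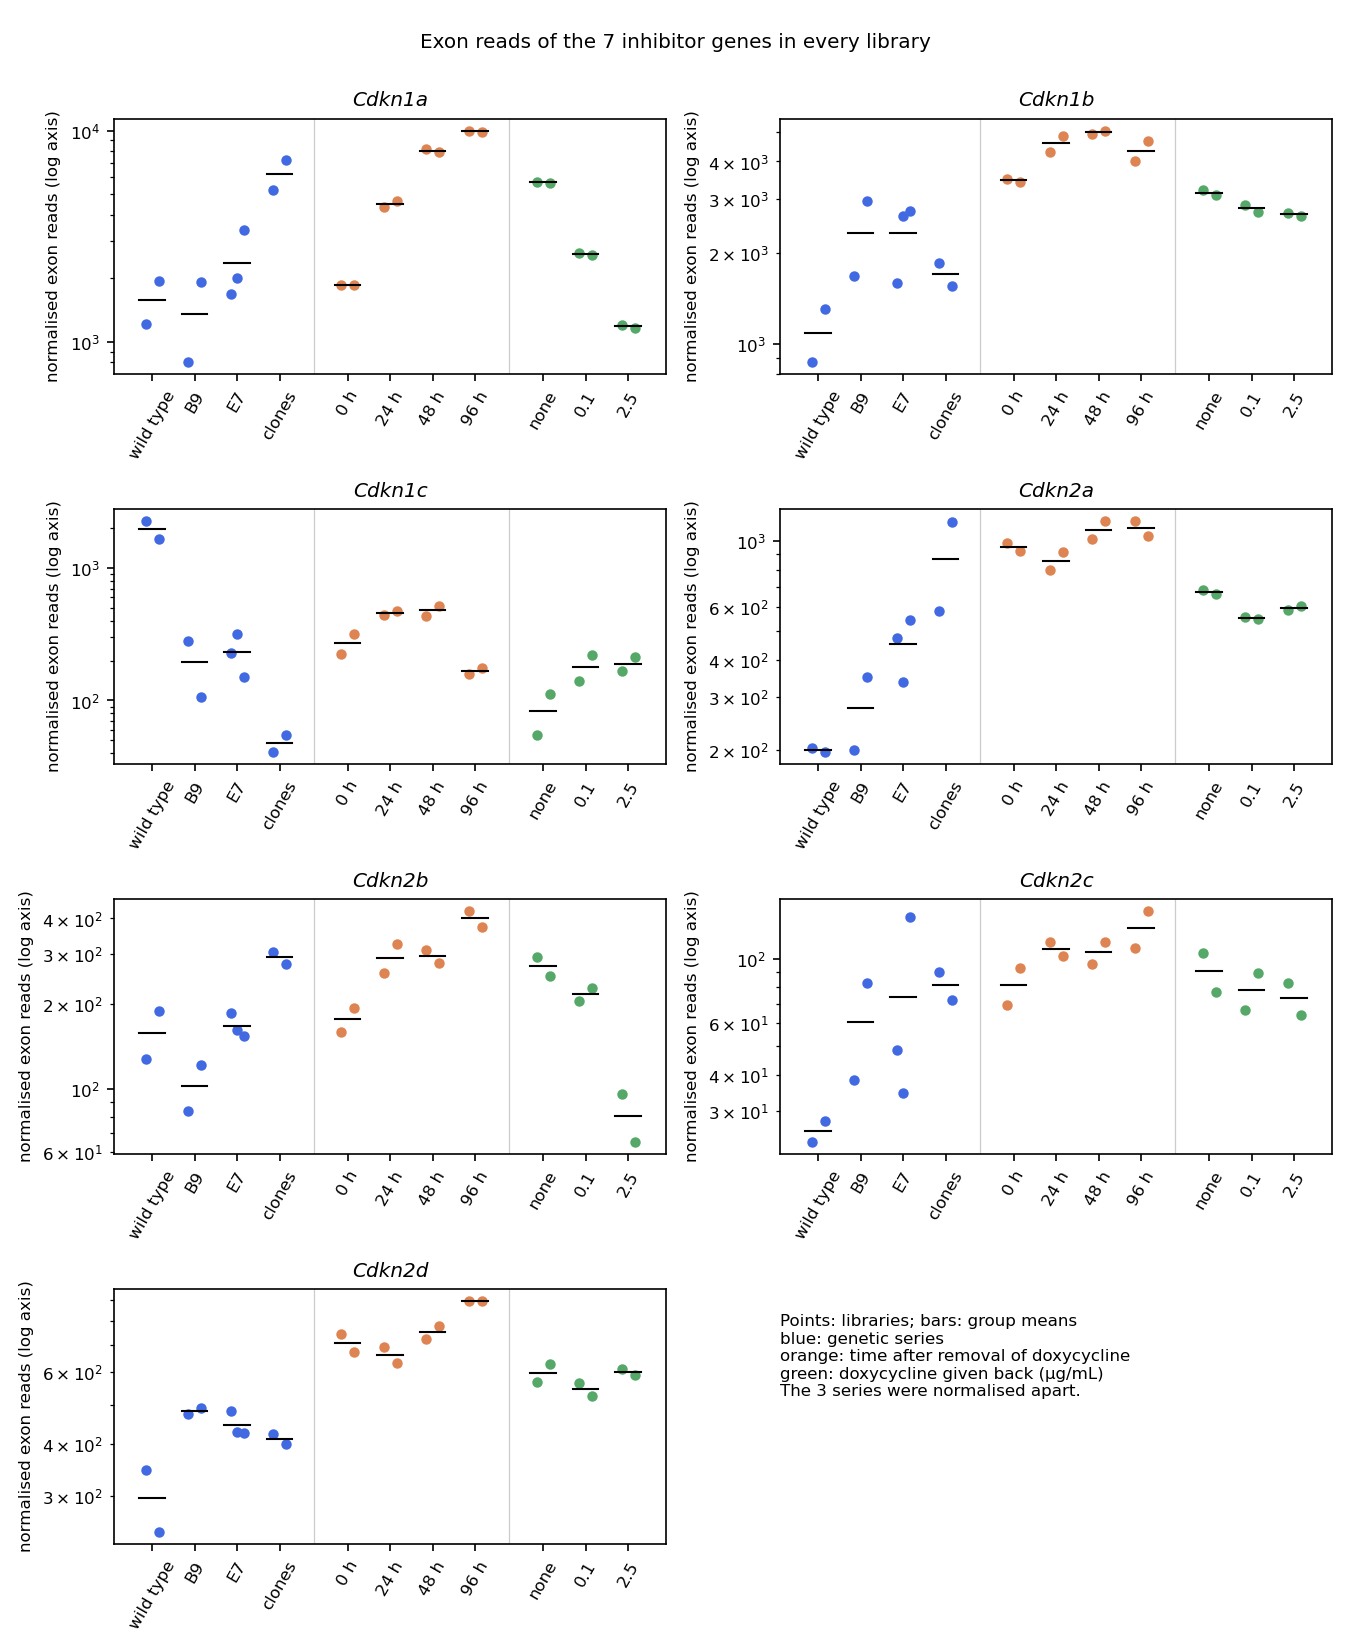
Normalised exon reads (log axis) of each inhibitor gene in every library of the genetic series (blue), the time course (orange) and the rescue (green, doxycycline in µg/mL); points are libraries and bars group means. Cdkn1a climbs from 1850 and 1857 at 0 h to 9999 and 9833 at 96 h and comes back to 1206 and 1163 at 2.5 µg/mL, while Cdkn1c is highest in wild type at 2287 and 1646.

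Cdkn1a (ENSMUSG00000023067, chromosome 17, 29090976 to 29100727 on the + strand, mm10) encodes p21, the inhibitor best known as a target of p53. Its exon reads were 1850 and 1857 before removal of doxycycline, 4373 and 4620 after 24 h, 8140 and 7947 after 48 h and finally 9999 and 9833 after 96 h. No library of a later time overlapped an earlier one. Each step was called and each was smaller than the one before: log2 change 1.28 ± 0.05 (SE; adjusted p = 1.72e-15) to 24 h, 0.84 ± 0.05 (adjusted p = 8.82e-12) to 48 h and 0.30 ± 0.05 (adjusted p = 2.54e-05) to 96 h. The level was thus still rising in the last interval. The neuroectoderm marker Nes had higher mean reads at later times as well, going from 1154 through 1571 and 2602 to 2551, and its means in the rescue were 1612, 1064 and 665 with rising dose. The markers of this list did not all follow that course. Pax6 went from 527 to 429, 404 and 537 at the same times, and its rescue means were 354.5, 320.1 and 289.8. The sum of the 3 neuroectoderm markers, of which Nes was the highest in each of these groups, went from 2633 to 2918, 4127 and 3913. In the rescue the sum went from 2389 to 1780 and 1500. The remaining marker, Sox1, went against Nes by what these sums leave for it. It was lower at 96 h than at 0 h, and higher at 2.5 µg/mL than without doxycycline. Markers of other lists moved as well. Gata4 of primitive endoderm went from 114 to 174, 266 and 272, with rescue means of 174, 89.7 and 96.1. Mixl1 of mesoderm went from 20.8 to 31.4, 43.2 and 55.9, with rescue means of 44.1, 29.85 and 19.7. Eomes of trophoblast went from 223 to 241, 229 and 175, with rescue means of 111, 185 and 147. The part of cells of these types in the course of Cdkn1a was not tested.

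Cdkn1a fell at both doses when doxycycline was given back. It had 5742 and 5641 reads without doxycycline, 2643 and 2581 with the low dose and 1206 and 1163 with the high dose. The log2 change was -1.12 ± 0.06 at the low dose (adjusted p = 5.06e-14) and a further -1.14 ± 0.06 from the low to the high dose (adjusted p = 2.4e-14). Among genotypes the clones gave 5207 and 7236 reads. E7 gave 1684, 2001 and 3380, B9 gave 800 and 1918, while wild type had 1212 and 1944. Both clone libraries lay above all others. The clones were called against wild type (log2 change 2.00 ± 0.44, adjusted p = 0.0119) and B9 (2.31 ± 0.44, adjusted p = 0.00967) but not against E7 (1.45 ± 0.40, adjusted p = 0.103, 95% interval 0.56 to 2.33). The call against wild type was lost without clone library 2 (adjusted p = 0.0758) or wild-type library 1 (0.0909), and that against B9 without clone library 2 (0.0607) or B9 library 1 (0.0703).

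Reads from introns come mainly from unspliced RNA and are commonly set beside exon reads to separate new transcripts from mature ones. For Cdkn1a they were 220 and 219 before removal of doxycycline, 371 and 388 after 24 h, 419 and 494 after 48 h and finally 432 and 367 after 96 h. They rose in the first day (log2 change 0.78 ± 0.12, adjusted p = 7.01e-06), and the libraries of 48 h and 96 h overlapped. At 24 h the exon change exceeded the intron change by 0.51 ± 0.13, with an adjusted p of 0.0834 where exon and intron libraries were paired and 0.00757 where they were not. At 96 h the intron change was 0.85 ± 0.12 (adjusted p = 1.11e-06) beside 2.42 in exons. The difference, exon change minus intron change, was 1.56 ± 0.13 (adjusted p = 0.00862, where 9.08% of genes were called). In the rescue introns went from 195 and 197 to 114 and 154 at 2.5 µg/mL (-0.56 ± 0.20, adjusted p = 0.021), and exons fell by more than introns (difference -1.66 ± 0.20, adjusted p = 0.0237, background 11.3%). Exon and intron libraries had to be paired by their likeness, which was weak in these series (r = 0.029 to 0.16), and the 96 h and 2.5 µg/mL differences rest on 2 libraries a group. With any one of them left out the differences were 1.43 to 1.68 and -1.43 to -1.90, but at most 14 of 11939 genes at 96 h and 0 of 11295 at 2.5 µg/mL were then called, so a call could hardly be made at that size. The fit that did not pair them gave 1.57 (adjusted p = 1.37e-07) and -1.66 (adjusted p = 2.05e-05). The fall of introns was also lost without no-doxycycline library 1 (adjusted p = 0.0954) or 2 (0.107), or without library 1 of 2.5 µg/mL (0.19). An antisense gene, AC167363.2, overlaps Cdkn1a, and whether the authors counted by strand is not given in the sources used here. Of the 4867 intron bases of the Cdkn1a transcript used here, 503 (10.3%) are exon in another GENCODE transcript of the gene. The authors' intron length is 7648 bases, so their introns are not those of this transcript alone. The part of spliced RNA in these intron reads was not tested.

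**Figure D2:**
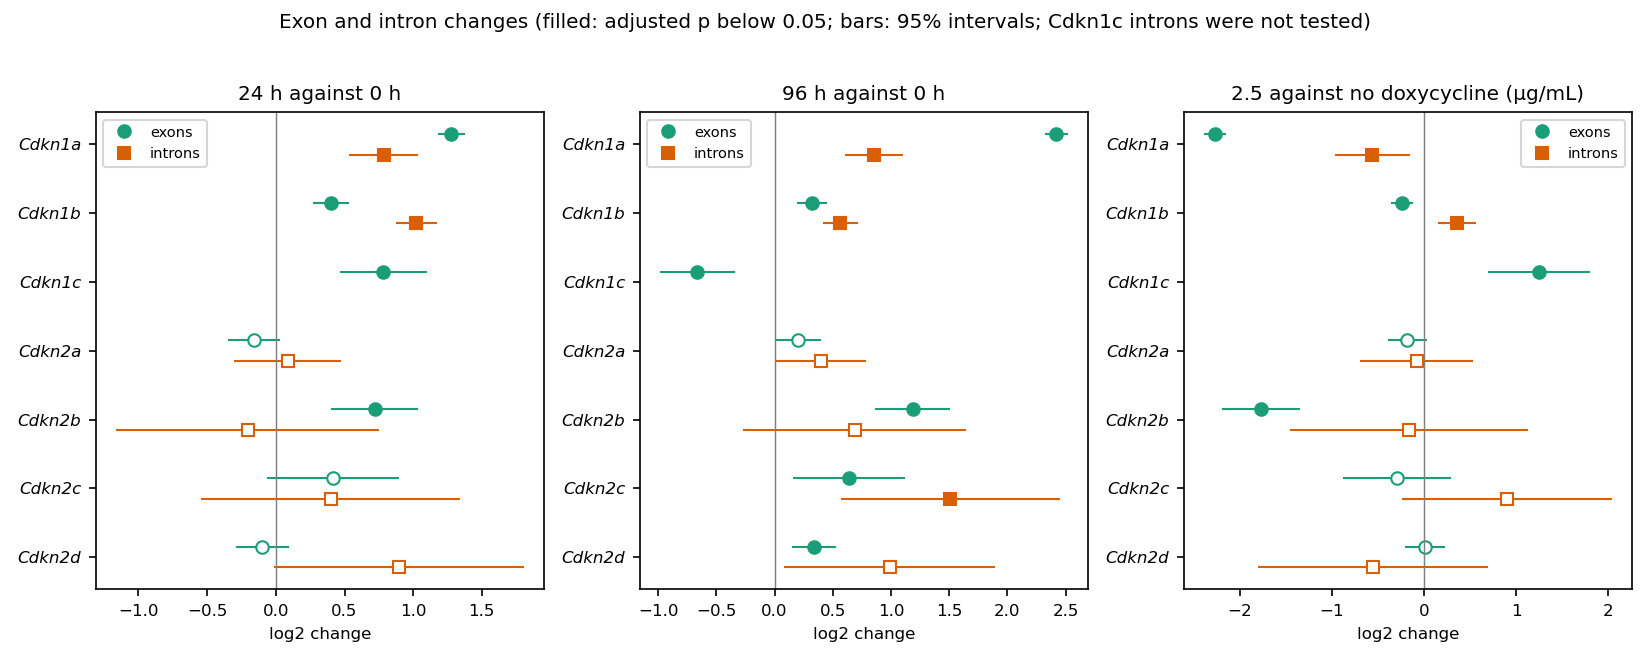
Log2 changes of exon (circles) and intron (squares) reads of the inhibitor genes for 24 h and 96 h without doxycycline and for 2.5 µg/mL given back; bars are 95% intervals and filled symbols an adjusted p below 0.05. The exon change of Cdkn1a exceeds its intron change in all 3 panels (2.42 against 0.85 at 96 h), whereas for Cdkn1b the intron change is the larger at 24 h (1.02 against 0.40).

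Cdkn1b (ENSMUSG00000003031, chromosome 6, 134920401 to 134925513, + strand) encodes p27, which is set mainly by turnover of the protein. Its exon reads were 3503 and 3425 before removal of doxycycline, 4313 and 4858 after 24 h, 4926 and 5056 after 48 h and finally 4016 and 4669 after 96 h. Both 24 h libraries lay above both at 0 h (log2 change 0.40 ± 0.06, adjusted p = 1.25e-05). The level at 96 h stayed above 0 h (0.32 ± 0.06, adjusted p = 9.87e-05) and was below that at 48 h (-0.20 ± 0.06, adjusted p = 0.0133). That last fall was lost without either 48 h library (adjusted p = 0.0555 and 0.112) or 96 h library 1 (0.276). In the rescue it had 3227 and 3091 reads, then 2875 and 2725 with the low dose and 2712 and 2645 with the high dose. The fall was -0.17 ± 0.06 at the low dose (adjusted p = 0.0157, lost without no-doxycycline library 1 at 0.164 or low-dose library 2 at 0.149) and -0.24 ± 0.06 at the high dose (adjusted p = 0.000781).

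Intron reads of Cdkn1b changed more than its exon reads on the first day. They were 773 and 780 before removal of doxycycline, 1626 and 1535 after 24 h, 1386 and 1320 after 48 h and finally 1160 and 1134 after 96 h. The rise to 24 h was 1.02 ± 0.07 (adjusted p = 2.67e-12) and that to 96 h 0.56 ± 0.07 (adjusted p = 2.07e-07). At 24 h the exon change minus the intron change was -0.61 ± 0.12, with an adjusted p of 0.0531 in the paired fit and 0.000919 in the fit that did not pair libraries. At 2.5 µg/mL introns and exons went opposite ways, with 679 and 638 intron reads before and 914 and 779 after (0.36 ± 0.10, adjusted p = 0.00443). The intron rise was lost without no-doxycycline library 2 (adjusted p = 0.0632) or library 1 of 2.5 µg/mL (0.0626). Of the 2720 intron bases of the transcript used here, 2159 (79.4%) are exon in another GENCODE transcript of Cdkn1b with a longer last exon. Intron reads of this gene may therefore come from spliced RNA too, and their part was not tested.

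Cdkn1b had 871 and 1308 exon reads in wild type, 1672 and 2971 in B9, 1590, 2639 and 2741 in E7, and 1853 and 1558 in the clones. Both wild-type libraries were below every mutant library. No genotype comparison of it was called, the largest change being 1.08 ± 0.33 in E7 against wild type (adjusted p = 0.0898).

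Cdkn1c (ENSMUSG00000037664, chromosome 7, 143458339 to 143461050, - strand) encodes p57 and is imprinted, being expressed from the maternal chromosome. It was highest in wild type and lowest in the clones. Exon reads were 2287 and 1646 in wild type. B9 gave 281 and 107, E7 gave 229, 316 and 151, and the clones gave 40.5 and 54.7. The wild-type libraries stood above every mutant line, and both clone libraries were below all others. Against wild type the log2 change of B9 was -3.48 ± 0.50 (adjusted p = 0.0358) and that of E7 -3.12 ± 0.46 (adjusted p = 0.00579). For the clones it was -5.34 ± 0.50 (adjusted p = 0.000278). It was 1 of 9 genes called in B9 against wild type (0.0685% of 13142), and the 1 inhibitor called in E7 against wild type (4.56%) and in clones against E7 (1.51%). In the last it fell by 2.21 on the log2 scale (SE 0.46, adjusted p = 0.0444). The 5 feeder fibroblast markers, none of them at 0 in wild type and 3 at 0 in E7 and in the clones, also had their highest sum among genotypes in wild type, and their part in this difference was not tested.

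Most genotype calls of Cdkn1c were lost when a single library was left out. That of clones against E7 was lost under 5 other settings, and without clone library 2 (adjusted p = 0.122) or E7 library 1 (0.109) or 2 (0.192). B9 against wild type was lost without any of its 4 libraries (adjusted p = 0.0542 to 0.283), and E7 against wild type without wild-type library 1 (0.066) or 2 (0.0627). No filter (0.0942), only the groups compared (0.0657) and a prior with no trend (0.149) ended the call of B9 against wild type as well. Clones against B9 (-1.86 ± 0.50, adjusted p = 0.0353) was lost without B9 library 1 (0.243) or clone library 1 (0.0772) or 2 (0.0829). It was also lost with no filter (0.0537), with precision weights (0.0648), with a prior that has no trend (0.0673) and when only the groups compared were fitted (0.0938). Clones against wild type kept its call under all alternatives run.

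In TT-FHAgo2 cells Cdkn1c first rose and then fell. It had 223 and 316 reads before removal of doxycycline, 441 and 476 after 24 h, 438 and 522 after 48 h and finally 159 and 176 after 96 h. The rise in the first day was 0.78 ± 0.15 (adjusted p = 0.000185), the second day gave 0.06 ± 0.15 (adjusted p = 0.793, interval -0.26 to 0.38), and the fall from 48 to 96 h was -1.51 ± 0.15 (adjusted p = 6.47e-08). Against 0 h the level at 96 h was -0.66 ± 0.15 (adjusted p = 0.000627). In the rescue it had 55.1 and 112 reads without doxycycline, 141 and 219 with the low dose and 167 and 212 with the high dose. The log2 change was 1.15 ± 0.27 at the low dose (adjusted p = 0.001) and 1.25 ± 0.27 at the high dose (adjusted p = 0.000221). The doses did not differ by test (0.10 ± 0.27, adjusted p = 0.802, interval -0.45 to 0.65). The low-dose call was lost without no-doxycycline library 1 (change 0.64, adjusted p = 0.0792), and with a prior that has no trend neither dose was called (adjusted p = 0.106 and 0.0601). The sum of the 5 feeder fibroblast markers was also higher at 24 h and 48 h (466 and 473) than at 0 h (237), was 320 at 96 h, and went from 100 to 143 and 214 with rising dose. Most of it was Thy1 (195, 338, 367 and 247 in the time course, and 58.6, 83.7 and 177 in the rescue). Col3a1 was at 0 in every group of both series. Of the 5 markers, 2 were at 0 at 0 h and 24 h, and 3 at 48 h and 96 h. In the rescue 2 were at 0 without doxycycline, 1 at the low dose and 3 at the high dose. Trophoblast markers summed to 358, 358, 303 and 256 in the time course, and to 190, 283 and 266 in the rescue. Primitive endoderm markers summed to 239, 354, 380 and 331, and to 205, 146 and 197 in the rescue. The part of cells of any of these types was not tested. Introns of Cdkn1c gave 0 to 14 reads a library in these 2 series and were not tested. An antisense gene, Gm44732, overlaps Cdkn1c.

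**Figure D3:**
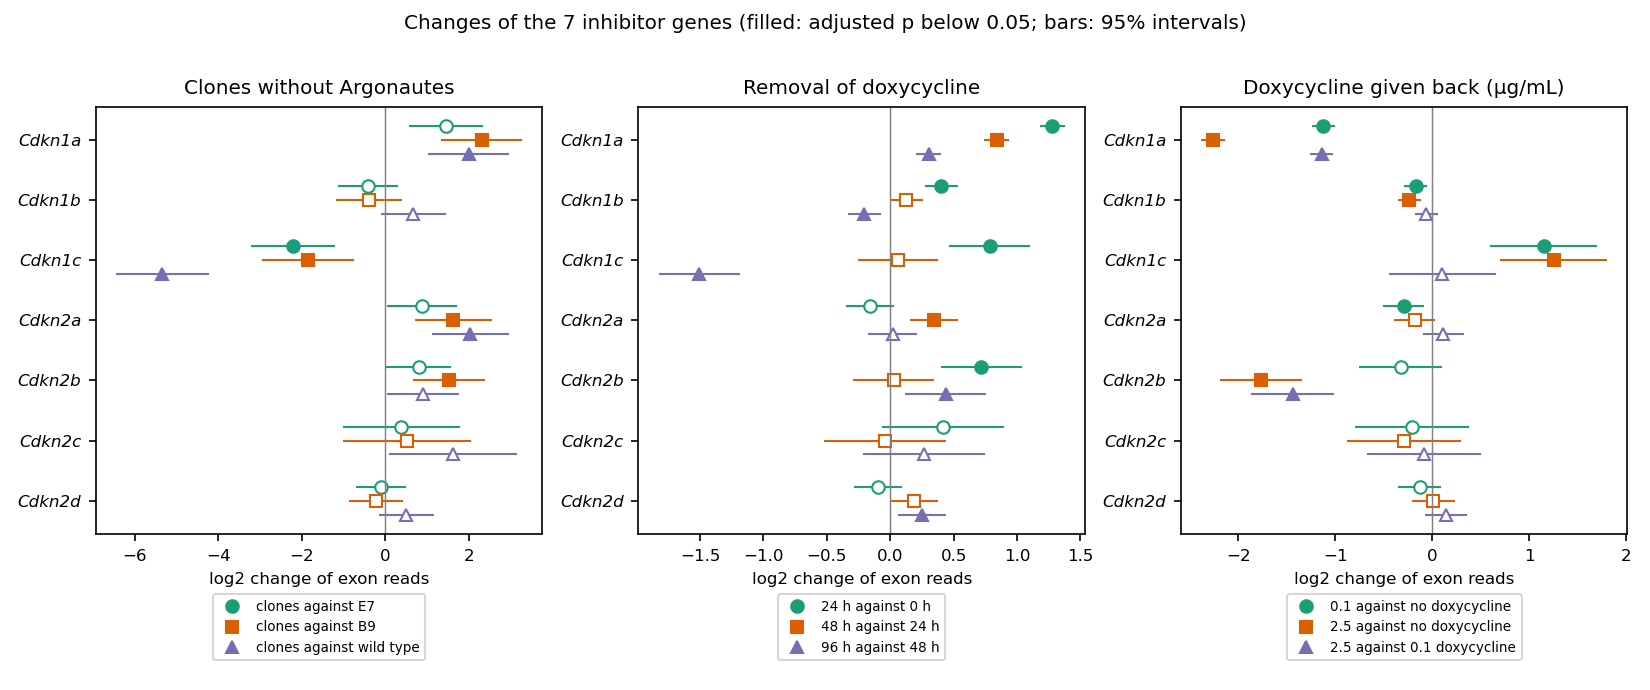
Log2 changes of exon reads of the 7 inhibitor genes, with 95% intervals, among genotypes (left), between successive times without doxycycline (middle) and between doses given back (right); filled symbols have an adjusted p below 0.05. Cdkn1c points opposite to Cdkn1a in the clones (-5.34 and 2.00 against wild type) and at 2.5 µg/mL (1.25 and -2.26), and the axes of the 3 panels differ.

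Cdkn2b (ENSMUSG00000073802, chromosome 4, 89306299 to 89311039, - strand) encodes p15, an inhibitor induced by Tgf-beta. Among the members its course was the most like that of Cdkn1a, with a Pearson r of 0.918 over the 11 group means on the log2 scale, centred within series. Its exon reads were 158 and 194 before removal of doxycycline, 256 and 326 after 24 h, 311 and 279 after 48 h and finally 426 and 375 after 96 h. It rose in the first day (log2 change 0.72 ± 0.15, adjusted p = 0.000462), gave 0.03 ± 0.15 in the second (adjusted p = 0.912), and rose again from 48 to 96 h (0.44 ± 0.15, adjusted p = 0.0285). That last step was lost without either 48 h library (adjusted p = 0.0633 and 0.197) or 96 h library 1 (0.182). The whole change was 1.19 ± 0.15 (adjusted p = 4.17e-07).

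Cdkn2b came down mainly at the high dose. It had 293 and 251 reads without doxycycline, 205 and 228 with the low dose and 96.0 and 64.8 with the high dose. The groups did not overlap, but the low dose was not called (-0.33 ± 0.21, adjusted p = 0.209). The high dose was (-1.77 ± 0.21, adjusted p = 2.92e-08), as was the step between doses (-1.44 ± 0.21, adjusted p = 3.07e-06). In the clones it had 306 and 277 reads, above all 7 libraries of E7 (153 to 186), B9 (83.4 and 122) and wild type (127 and 189). The call was made against B9 alone (1.52 ± 0.39, adjusted p = 0.0293; 13.0% of genes and 4 of the 7 members called), and lost without either B9 library (adjusted p = 0.184 and 0.0705) or clone library 2 (0.0764). Against E7 the change was 0.80 ± 0.36 (adjusted p = 0.237) and against wild type 0.91 ± 0.39 (adjusted p = 0.124).

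Intron reads of Cdkn2b were few, with 33 reads in all at 0 h and 22 at 24 h. The paired fit called exons minus introns at 24 h (0.94 ± 0.10, adjusted p = 0.0269; 1 of 6 members, where 4.12% of genes were called) and at 96 h (0.49 ± 0.10, adjusted p = 0.0406). Counting error alone gives an SE of 0.41 and 0.33 for these 2 values, above the SE of the fit, and the fit without pairing did not call either (adjusted p = 0.0763 and 0.354). They are not taken as changes here. At 2.5 µg/mL the difference was -1.57 ± 0.49, not called in the paired fit (adjusted p = 0.101) and called without pairing (adjusted p = 0.0448).

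Cdkn2a (ENSMUSG00000044303, chromosome 4, 89274471 to 89294653, - strand) lies 11.6 kb from Cdkn2b and gives rise to both p16 and the unrelated protein p19Arf, which holds Mdm2 off p53. Reads were counted over the whole gene, so the 2 products cannot be told apart. Exon reads were 203 and 196 in wild type. B9 gave 199 and 351, E7 gave 472, 337 and 544, and the clones gave 581 and 1154. The clones were called against wild type (2.03 ± 0.42, adjusted p = 0.00864; 3 of the 7 members, where 18.6% of genes were called) and B9 (1.63 ± 0.42, adjusted p = 0.0293), and not against E7 (0.89 ± 0.38, adjusted p = 0.227). The 2 clone libraries were far apart. Without clone library 2 both calls were lost (adjusted p = 0.0553 and 0.158), as were that against wild type without wild-type library 2 (0.0631) and that against B9 without B9 library 1 (0.188). Without clone library 1 the change against E7 was 1.38 and called (adjusted p = 0.049).

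In the time course and the rescue Cdkn2a changed less. It had 987 and 921 reads before removal of doxycycline, 796 and 917 after 24 h, 1014 and 1161 after 48 h and finally 1168 and 1034 after 96 h. The step from 24 to 48 h was called (0.34 ± 0.09, adjusted p = 0.00464), though not without 24 h library 1 (0.0945) or 48 h library 2 (0.123). At 96 h it was 0.21 ± 0.09 above 0 h (adjusted p = 0.0559). That value was called without 96 h library 2 (0.0191) and under scaling to total reads (0.0275). In the rescue it had 686 and 665 reads, then 554 and 546 with the low dose and 585 and 605 with the high dose. The low dose was called (-0.30 ± 0.10, adjusted p = 0.0204) and the high dose was not (-0.18 ± 0.10, adjusted p = 0.122). With a prior that has no trend the high dose was called too (limma adjusted p = 0.036). The doses did not differ by test (0.11 ± 0.10, adjusted p = 0.402). The low-dose call was lost when any of its 4 libraries was left out (adjusted p = 0.0602 to 0.122).

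Cdkn2c (ENSMUSG00000028551, chromosome 4, 109660876 to 109667189, - strand) encodes p18 and was the lowest of the 7 per kilobase in every group but the clones. Its exon reads were 69.6 and 93 before removal of doxycycline, 114 and 102 after 24 h, 95.6 and 114 after 48 h and finally 109 and 146 after 96 h. It rose by 0.64 ± 0.23 over 96 h (adjusted p = 0.0194), a call lost without 0 h library 1 (0.184) or 96 h library 2 (0.201). Introns had 19.2 and 9.34 normalised reads at 0 h and 44.2 and 36.7 at 96 h (1.51 ± 0.46, adjusted p = 0.00822), lost without 0 h library 2 (0.123) or 96 h library 1 (0.0721). In the rescue exons had 104 and 76.5 reads, then 66.6 and 89.1, then 82.3 and 64.1, and neither dose was called. Introns went from 16.4 and 12.5 to 28.6 and 26.7 at 2.5 µg/mL (0.90 ± 0.55, adjusted p = 0.189). The paired difference of exons and introns was called there (-1.16 ± 0.21, adjusted p = 0.0357). It had an adjusted p of 0.154 without pairing, and its counting error alone is 0.35. No genotype comparison was called, with 23.4 and 27.8 exon reads in wild type. The mutant lines ranged from 34.5 to 139, E7 spanning that whole range, and the clones gave 90.2 and 72.

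Cdkn2d (ENSMUSG00000096472, chromosome 9, 21288410 to 21291407, - strand) encodes p19 of the INK4 family, which is distinct from p19Arf. It had 741 and 673 reads before removal of doxycycline, 691 and 630 after 24 h, 725 and 779 after 48 h and finally 896 and 892 after 96 h. The libraries of 0 h and 24 h overlapped, and both at 96 h were above all others. The change over 96 h was 0.34 ± 0.09 (adjusted p = 0.00252), most of it after 48 h (0.25 ± 0.09, adjusted p = 0.0363, lost without any of the 4 libraries, at 0.0677 to 0.235). Doxycycline given back did not bring it down by test. It had 568 and 627 reads without it, 564 and 526 with the low dose and 610 and 591 with the high dose (0.01 ± 0.11, adjusted p = 0.956, interval -0.21 to 0.23). In wild type it had 347 and 244 reads, below the 400 to 491 of all mutant libraries. No genotype comparison of Cdkn2d was called.

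E7 against B9 sets cells with the transgene hAgo2fl beside cells that keep their own Ago2. The lines also differ in CreERT2 and each is a single line, so these differences cannot be told apart. No inhibitor was called there by limma (0.0685% of genes were), none had an unadjusted p below 0.05, and limma with precision weights gave 0 as well. The intervals were wide, for example -0.02 to 1.74 for Cdkn1a and -0.66 to 1.37 for Cdkn1c. Introns called 2 of the 6 members tested at 24 h (37.2% of genes), 3 of 6 at 96 h (44.6%) and 2 of 6 at 2.5 µg/mL (46.4%), all described above.

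Partners of the inhibitors were counted in lists chosen with earlier results of these data known. At 96 h 65.0% of all genes were called, at 2.5 µg/mL 63.8%, at 24 h 50.7% and in clones against wild type 18.6%. Counts in lists are read beside these shares. Of 11 cyclins and kinases, 5 rose and 3 fell (median log2 change 0.06, against -0.01 for all genes). The G1 cyclin Ccnd2 rose from 1870 to 2698 (0.53) and Ccne2 by 0.52, while Ccne1, which brings Cdk2 into S phase, fell by 0.51 and the mitotic cyclin Ccnb1 fell by 0.50. All 4 were called in the opposite direction at 2.5 µg/mL. Of the 8 pocket protein and E2F genes, 4 rose and 3 fell (median 0.41). The 4 that moved most were Rbl2, which encodes the pocket protein p130 (1127 to 4033, log2 change 1.84), E2f2 (0.83), Rb1 (0.76) and Rbl1 (0.71). On return of 2.5 µg/mL they changed by -2.86, -0.70, -0.89 and -0.54, all called.

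Of 10 genes for the turnover of Cip/Kip proteins, none rose and 6 fell at 96 h (median -0.21). The largest falls were of Ubac1, a subunit of the Kpc ligase of p27 (3605 to 2359, -0.61), Cks1b, a cofactor of Skp2 (-0.58), and the cullins Cul1 (-0.49) and Cul4b (-0.39). At 2.5 µg/mL 6 of the 10 rose and 2 fell (median 0.19), and those 4 were among the 6, with 0.80, 0.85, 0.27 and 0.42. Of 11 transcription regulators of the inhibitors, 4 rose and 3 fell at 96 h. Myc, a repressor of Cdkn1a and Cdkn2b transcription, fell from 2957 to 1016 (-1.54, SE 0.09, adjusted p = 7.13e-13) and came back to 1996 from 704 at 2.5 µg/mL (1.50, SE 0.07, adjusted p = 8.19e-16). Smad3, which carries Tgf-beta signals, rose by 0.84 and Trp53, encoding p53, by 0.35, and Klf4 fell by 0.43.

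Of 14 p53 targets, 9 rose and none fell at 96 h (median 0.38). The antiproliferative gene Btg2 rose from 1697 to 5907 (1.80), Perp by 1.18, Pmaip1 by 0.54 and Sesn1 by 0.49. With 2.5 µg/mL given back, 10 of the 14 fell and 2 rose (median -0.33). Of 9 repressors of the Cdkn2a and Cdkn2b locus, 2 rose and 4 fell at 96 h. Bmi1 rose from 1110 to 1972 (0.83), while Cbx7 (-0.50), Eed (-0.43) and Ezh2 (-0.17) fell.

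Cdkn1c lies in a domain of imprinted genes. Of its 7 neighbours measured, 6 were tested at 96 h, where 5 fell and 1 rose (median -0.85). Ascl2, needed in the trophoblast lineage, fell from 242 to 48.1 (-2.32, SE 0.21, adjusted p = 1.63e-09), Phlda2, a growth restrainer of the placenta, from 695 to 186 (-1.89, SE 0.11, adjusted p = 2.35e-13), and Slc22a18 from 44.6 to 16.2 (-1.43, adjusted p = 0.0203). Cd81 rose by 0.64. At 2.5 µg/mL 4 of the 6 rose and Cd81 fell, with Phlda2 going from 75.5 to 405 (2.43) and Ascl2 from 34.0 to 297 (3.08). At 24 h, when Cdkn1c had risen, 1 of the 6 rose and 2 fell. Cd81 rose by 0.37, Tssc4 changed by -0.37 (adjusted p = 0.000125) and Slc22a18 by -1.29 (adjusted p = 0.0445), while Phlda2 had 717 reads beside 695 at 0 h (0.05, adjusted p = 0.733), Ascl2 192 beside 242 (-0.33, adjusted p = 0.21) and Nap1l4 6582 beside 6922 (-0.07, adjusted p = 0.265). In clones against wild type 1 rose, 1 fell and 4 were not called. Phlda2 went from a mean of 2072 to 40.8 (-5.67, adjusted p = 0.00028) and Cd81 rose from 5088 to 9126 (0.84, adjusted p = 0.0276). The 4 not called were Slc22a18 (-2.71), Ascl2 (-1.53), Nap1l4 (-0.12) and Tssc4 (0.60). B9 and E7 had Phlda2 means of 200 and 156.

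**Figure D4:**
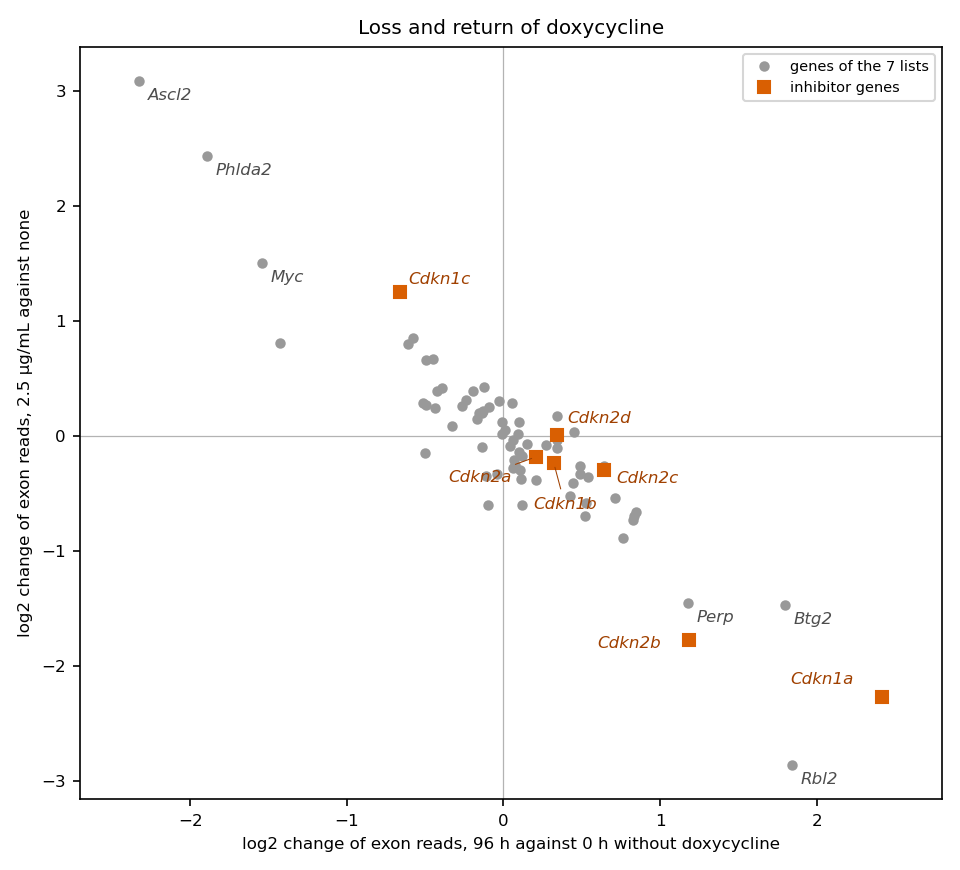
Log2 change of exon reads over 96 h without doxycycline (x axis) against that on return of 2.5 µg/mL (y axis) for 68 genes of the 7 lists (grey) and the 7 inhibitor genes (orange). Cdkn1a and Cdkn2b lie at lower right (2.42 and -2.26, 1.19 and -1.77), Cdkn1c at upper left (-0.66 and 1.25), and Cdkn2d has a return near 0 (0.34 and 0.01); Rbl2 is the grey point with the lowest return, at -2.86.

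Genes with a course most like that of each inhibitor were sought among 12887 genes, by the Pearson r of log2 group means centred within series over the 11 groups. These values are descriptions of 11 points that share libraries and scaling. For Cdkn1a they were Gdf11 (0.997), a Tgf-beta family ligand, Trim47 (0.992) and Cxadr (0.991). For Cdkn1c they were the growth factor receptor Fgfr2 (0.983), Dmrt1 (0.978) and Igf2 (0.976), an imprinted growth factor on the same chromosome. Cdkn1b was most like Arhgap20 (0.970), Pias1 (0.968) and Ffar4 (0.967). Genes of like course to Cdkn2a included Hoxd9 (0.988) and Evi5l (0.985), and Cdkn2b was most like Gps2 (0.981), the interferon-stimulated gene Ifit1 (0.970) and Anxa1 (0.969). For Cdkn2c they were Uba1y (0.986), Serpinb1a (0.985) and Stard8 (0.985). Cdkn2d had the least close, with Fam167a at 0.920 and Aff1 and Cipc at 0.919. Among the members themselves, Cdkn1c had a negative r with Cdkn2c (-0.867) and Cdkn2a (-0.854) over the 11 groups. These include the wide range of Cdkn1c among genotypes, from a mean of 1966 in wild type to 47.6 in the clones. In the first 24 h of the time course the mean of Cdkn1c went from 270 to 459. That of Cdkn2c went from 81.3 to 108, and that of Cdkn2a from 954 to 856.5.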

How the data were processed

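The 6 deposited tables (exons and introns of 3 series) hold the authors' normalised signal, a mean per group for 18412 genes. Reads were aligned with TopHat2 2.0.12 to mm10 and normalised with DESeq, per the submitters' processing notes. For the counting tool, the annotation and the use of strand, the sources used here give nothing.

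Each mean is a sum of whole reads scaled per library, so library reads were solved for by a search for whole numbers. Of 405064 values, 404962 (99.975%) had 1 solution. Of the 102 others, 101 are exon values of E7, and all 7 inhibitors were solved. Those 101 values hold 17.7% of the summed exon signal of E7. Their genes were left out of the exon tests of the genetic series. Libraries are numbered by depth within a group, because the tables name no replicates, so it is unknown which sample or clone each one is. The planned tests assumed library values and were run on these recovered ones.

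Tests used limma 3.58.1 (R 4.3.3) on log2(normalised reads + 1). Each table was fitted once with all its groups and a trended prior, on genes with a mean of at least 10. P-values were adjusted by Benjamini-Hochberg over all genes tested and called below 0.05. Intervals are 95% from limma's moderated t distribution. Exon and intron libraries were paired by likeness for their difference, and an interaction fit without pairing was the alternative. The scripts were tested on simulated data. Other settings were the pseudocount (0.5, 8), the filter (none, 50), scaling, the prior, precision weights, only the groups compared, and leaving out each library. From each partner list, at most the 4 called genes with the largest change at 96 h were named, plus the 3 genes most like each member, of which 1 is not reported here; the 24 h and genotype values of the genes around Cdkn1c, and Tssc4 and Nap1l4 among them, were added after their values were seen. The members and lists were chosen with earlier results of these data known.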

Additional observations from a re-analysis of the deposited data

How the results depend on the processing

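No called change of an inhibitor went the other way under another setting. Some changes that were not called did change sign. Among exons, that of Cdkn1a in B9 against wild type ranged from -0.94 to 0.32, and that of Cdkn1c in E7 against B9 from -0.34 to 1.05. Such values are counted here as keeping their side of the threshold. Of 1204 exon values under other settings 1127 kept their side of the threshold, 70 lost a call and 7 gained one. For introns these were 213, 9 and 3 of 225, and for exons minus introns 76, 23 and 9 of 108. With no filter, 0 inhibitors were called in clones against E7, 0 in B9 against wild type and 3 in 96 h against 48 h. Quantile normalisation and precision weights each gave 0 in clones against E7. Fitting only the groups compared gave 0 in clones against E7, 1 in clones against B9 and 0 in B9 against wild type. A prior with no trend gave 0 in clones against E7, 2 in clones against B9, 0 in B9 against wild type, 1 in 48 h against 24 h, 2 in 96 h against 48 h, 2 at 0.1 µg/mL, 5 in introns of 96 h against 0 h and 0 in introns of 2.5 µg/mL. For exons minus introns, a pseudocount of 8 gave 3 at 24 h and 4 at 2.5 µg/mL, and the interaction fit 3 at 24 h, 1 at 96 h and 3 at 2.5 µg/mL, where Cdkn1b (adjusted p = 0.00359) and Cdkn2b (0.0448) were gained and Cdkn2c (0.154) lost. That fit called 1746, 2219 and 2817 of all genes in these comparisons, beside 492, 1084 and 1280 with pairing.

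Single calls were also lost in these comparisons. Cdkn2a in clones against B9 was lost when only the groups compared were fitted (adjusted p = 0.0623) and with no trend (0.0586), and Cdkn2b there in the former (0.0898). In 96 h against 48 h Cdkn2b was lost with no filter (0.0655) and no trend (0.101), Cdkn2d with no filter (0.0512), quantile normalisation (0.0588) and no trend (0.0622), and Cdkn1b with no trend (0.163). With no trend Cdkn2a in 48 h against 24 h (0.0708) and Cdkn1b at 0.1 µg/mL (0.0847) were lost, the latter with quantile normalisation too (0.0501), as were the introns of Cdkn1a (0.0666) and Cdkn1b (0.0848) at 2.5 µg/mL.

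Leaving out each library in turn gave 0 to 2 in clones against E7, 1 to 3 in clones against wild type, 0 to 3 in clones against B9, 0 to 1 in E7 against wild type, 0 in each case in B9 against wild type, 1 to 3 in 48 h against 24 h, 2 to 4 in 96 h against 48 h, 1 to 3 at 0.1 µg/mL, 0 to 2 in introns of 2.5 µg/mL, and 0 in every exons-minus-introns comparison. In these last fits 0 to 14 of all genes were called, so the 0 says nothing about the inhibitors. Where a group kept 1 library, it was assumed to vary like the others. The cause of these losses was not tested. No paired analysis was possible because the columns carry no replicate number. Depth limits Cdkn1c introns and the intron values of Cdkn2b, Cdkn2c and Cdkn2d. Counts in the partner lists were rerun under the other settings as well. Of 1106 such counts, 1012 stayed the same or nearly so and 94 did not.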
